A study of Mus musculus with 41 samples.

Results

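The data described here are the 2 peak lists that mark where an anti-FLAG precipitation recovered DNA from 3T3 cells, a mouse fibroblast line, at day 0. The first list, named for Runx2, came from 3T3 cells overexpressing Runx2BioFL, a tagged form of the transcription factor Runx2, and holds 31013 peaks. The second, named for GFP, came from 3T3 cells overexpressing green fluorescent protein, and holds 2475 peaks. All peaks of both lists were taken, 33488 of the 155773 peaks in the 8 peak lists of the series. Day 0 is the start of a culture that other samples continued for 3 days in osteogenic medium, a medium with rhBMP-2 (100 ng/ml), β-glycerophosphate (10 mM) and the phosphate of ascorbic acid (50 μg/ml). How the cells were made to express Runx2BioFL or GFP, and whether they were clones, is not given in the sources used here. The input libraries were not analysed here.

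The series has 41 samples of mouse skeletal cells and 3T3 cells, of ATAC-seq, ChIP-seq, input and IgG kinds. The 6 other lists served to describe the day 0 peaks. They are Runx2 day 3 and GFP day 3 in 3T3 cells, Runx2 of rib chondrocytes and of calvarial osteoblasts (2 FLAG libraries each, from C57BL/6 mice with the Runx2-BioFL/+ knock-in at postnatal day 1), and, from wild-type C57BL/6 mice at postnatal day 1, Foxa2 of rib chondrocytes and Jun of calvarial osteoblasts. Each of the 4 groups of 3T3 cells had 1 ChIP library and 1 list. The labels of 2 lists were crossed: the description of the Runx2 day 0 sample names the list called GFP day 3, and that of the GFP day 3 sample names the list called Runx2 day 0. Lists are used here under their own names, and values with those lists exchanged are given where they matter.

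Runx2 is a Runt-domain transcription factor that binds DNA with its partner Cbfb and is required for the formation of osteoblasts. Fibroblasts do not form bone on their own, and forced expression of Runx2 is a common way to study how the factor acts on their chromatin. In cells that carry GFP and no FLAG-tagged Runx2, an anti-FLAG precipitation has no intended target, so its peaks serve as the measured background. Jun is a subunit of AP-1, a factor that occupies many enhancers of fibroblasts and osteoblasts. Foxa2 is a forkhead factor with a role in chondrocyte hypertrophy. The comparison asks how much of the Runx2 list at day 0 was also found without tagged Runx2.

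The Runx2 list was 12.5 times as long as the GFP list and covered 6137 kb of the genome, against 529.1 kb for GFP, a ratio of 11.6. Its peaks had a median width of 190 bp (quartiles 149 and 247), against 203 bp (148 and 278) for GFP. The files give no score, height or depth, so neither the difference in list size nor any other difference between the lists could be tested against the spread between libraries. Intervals below are 95% intervals (Wilson for shares, Newcombe for differences) that cover counting error of peaks only, and neighbouring peaks are not independent.

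Of the Runx2 peaks, 1354 of 31013 overlapped a GFP peak by at least 1 bp, a share of 4.37% (4.14 to 4.60%). Of the GFP peaks, 1163 of 2475 overlapped a Runx2 peak, a share of 47.0% (45.0 to 49.0%). The control thus took up a small part of the Runx2 list, while nearly as many control peaks lay inside the Runx2 list as outside it. That small part is limited by the length of the control list, which held 2475 peaks. The longer GFP day 3 list, of 16799 peaks, met 21.6% of the Runx2 day 0 peaks. In covered length the 2 day 0 lists had 143.7 kb in common, 2.34% of the Runx2 length and 27.2% of the GFP length. With the crossed lists exchanged, 9.29% of the peaks taken as Runx2 overlapped GFP and 55.8% of GFP peaks overlapped them.

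The shared peaks were often offset from each other. The 1434 overlapping pairs had centres a median of 95 bp apart (quartiles 41.5 and 159) and a median of 106 bp in common. In 392 pairs (27.3%) 1 peak lay inside the other, and in 438 pairs (30.5%) the overlap was under 50% of the shorter peak. No peak had the same start and end in both day 0 lists, where 1354 Runx2 peaks overlapped GFP. A far larger number of Runx2 day 0 peaks, 25370, overlapped Runx2 day 3, and 72 of them had the same start and end there. The first of these in file order was chr5:125870167-125870247 (81 bp), and it was the second peak of both Runx2 files.

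Many GFP peaks that did not overlap a Runx2 peak lay beside one. A further 481 GFP peaks (19.4%) were 1 to 200 bp from the nearest Runx2 peak and 358 (14.5%) were over 200 and up to 1000 bp from it. In all, 2002 of 2475 GFP peaks (80.9%) lay within 1000 bp of a Runx2 peak, and 473 lay farther away. Of the 1312 GFP peaks outside the Runx2 list, 839 (63.9%) were within that distance, at a median gap of 369 bp for the whole class. From the side of Runx2, 10.4% of peaks lay within 1000 bp of a GFP peak, and 60.1% had none within 100000 bp. The GFP day 3 list overlapped GFP day 0 more often (55.8%) and had fewer near misses, with 10.5% at 1 to 200 bp and 9.70% beyond that and up to 1000 bp. Against Runx2 day 3, a list of 50180 peaks, 56.4% of GFP day 0 peaks overlapped and 88.6% lay within 1000 bp.

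**Figure D1:**
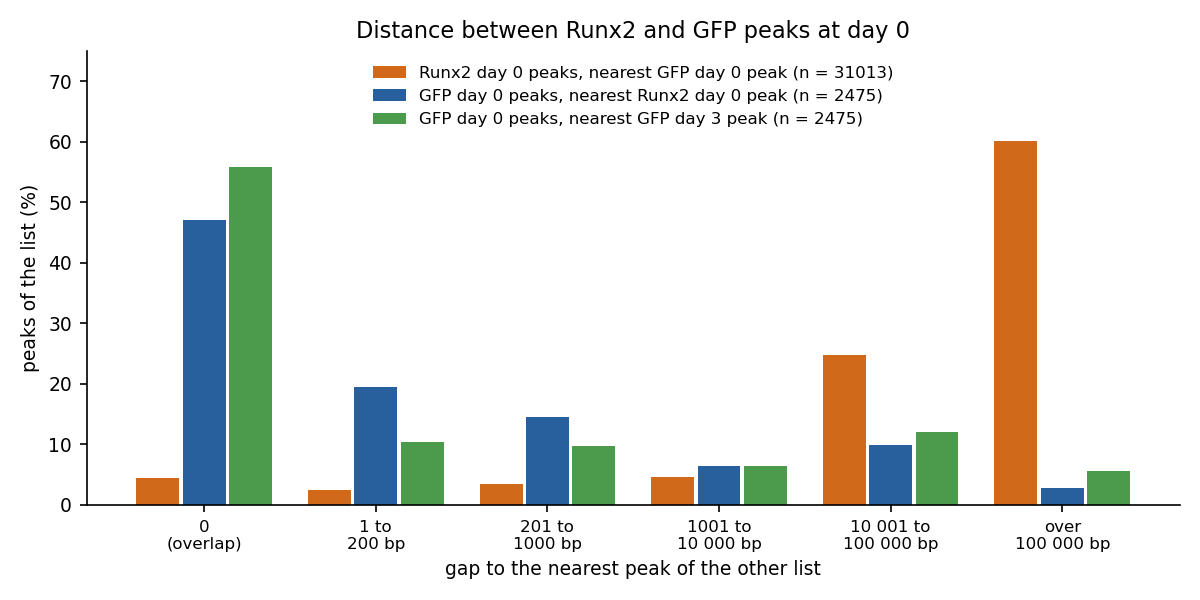
Share of peaks (%, vertical axis) by the gap in bp to the nearest peak of the other list (horizontal axis), for Runx2 day 0 peaks against GFP day 0, GFP day 0 peaks against Runx2 day 0, and GFP day 0 peaks against GFP day 3. Of the Runx2 peaks 60.1% lie over 100000 bp from a GFP peak, whereas 80.9% of the GFP peaks lie within 1000 bp of a Runx2 peak.

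Some peaks also overlapped others of their own list. In the Runx2 list 4129 peaks (13.3%) overlapped another peak of the same list, and in the GFP list 173 did (6.99%). When peaks within 1000 bp of each other were joined, the Runx2 list became 22900 loci and the GFP list 2052 loci. Of these, 4.94% of the Runx2 loci (4.67 to 5.23%) overlapped a GFP locus and 55.3% of the GFP loci (53.1 to 57.4%) overlapped a Runx2 locus.

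The widest and the earliest peaks of each class are given here by their position in build mm9. Among Runx2 peaks with GFP, the widest was at chr10:98723763-98724260 (498 bp), where it met 2 GFP peaks. It was listed at day 3 for Runx2 and for GFP, and in no list of primary cells. Next in width came the peaks at chr6:72389494-72389991 (498 bp) and chr11:106649122-106649618 (497 bp). The peak on chromosome 6 was in both primary-cell Runx2 lists and the peak on chromosome 11 in the Jun list. Both were also in both day 3 lists.

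The first 2 peaks of the Runx2 file overlapped GFP. The first, at chr9:123370977-123371210 (234 bp), was also in Runx2 day 3 and Foxa2, and its GFP partner stood 99th in the GFP file. The second is the peak on chromosome 5 named above. It was also in both day 3 lists and both primary-cell Runx2 lists, and its GFP partner stood 106th. The third Runx2 peak with GFP in file order lay at chr17:71313036-71313228 (193 bp) and was in Runx2 day 3 and Foxa2.

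Among Runx2 peaks without GFP, the first in the file lay at chr12:79451907-79452093 (187 bp), 510011 bp from the nearest GFP peak. It too was in Runx2 day 3 and Foxa2. The next of this class were at chr11:86571066-86571197 (132 bp) and at chr17:87846370-87846552 (183 bp). Neither overlapped GFP, but GFP peaks lay 146 and 143 bp away. Both were in both day 3 lists and both primary-cell Runx2 lists, and the peak on chromosome 11 was also a Jun peak. The widest Runx2 peaks without GFP, each of 498 bp, lay at chr12:86715581-86716078, chr15:64444838-64445335 and chr17:29215582-29216079. The nearest GFP peaks were 97166, 2043722 and 14621 bp away.

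The first peaks of the GFP file overlapped Runx2 peaks of primary cells. The first GFP peak, at chr12:44073854-44074028 (175 bp), had the same start and end as the 13th peak of the osteoblast Runx2 file. It overlapped a Runx2 day 0 peak that stood 4840th in its file. The second, at chr9:21754914-21755024 (111 bp), overlapped the Runx2 day 0 peak that stood 13505th. The third, at chr15:72399047-72399210 (164 bp), overlapped 2 Runx2 day 0 peaks, the first of them 51st in its file. The first 2 were in 5 of the 6 other lists, all but Foxa2, and the third was in all 6.

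GFP peaks without Runx2 also lay near the start of the file. The first of them was the 7th peak of the GFP file, at chr19:4989068-4989200 (133 bp), followed by its neighbour at chr19:4989174-4989291 (118 bp), which stood 10th. Both were in GFP day 3, Jun and both primary-cell Runx2 lists. They were not in either 3T3 Runx2 list, and the nearest Runx2 day 0 peak was 3396 and 3305 bp away. The 15th GFP peak, at chr2:33946242-33946374 (133 bp), was in all 6 other lists and lay 117072 bp from a Runx2 day 0 peak. The widest GFP peak without Runx2 lay at chr16:23107737-23108250 (514 bp). It lay 75 bp from the nearest Runx2 day 0 peak and was in 5 of the 6 other lists. The others among the 3 widest lay at chr17:84585570-84586063 (494 bp) and chr3:88306353-88306844 (492 bp). The 3 widest GFP peaks with Runx2 lay at chr5:108561002-108561499, chr12:103150812-103151307 and chr5:143579485-143579980.

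Position in the file went with overlap. From the first to the last of 10 equal parts of the Runx2 file, the share that overlapped GFP was 8.28, 7.0, 6.42, 6.45, 4.87, 4.42, 2.61, 1.97, 1.03 and 0.613%. The share in osteoblast Runx2 ran from 58.0 to 5.29% over the same parts, that in Jun from 34.9 to 6.13%, and that in Foxa2 from 2.74 to 4.58%. In the GFP file, overlap with Runx2 day 0 was 48.4% in the first part, 44.1% in the last, and between 40.5 and 51.6% in the others. Overlap of GFP day 0 peaks with GFP day 3 differed far more along the file, from 85.5 to 16.6%, and that with osteoblast Runx2 from 46.0 to 10.9%. What the order of a file stands for is not stated in the labels.

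**Figure D2:**
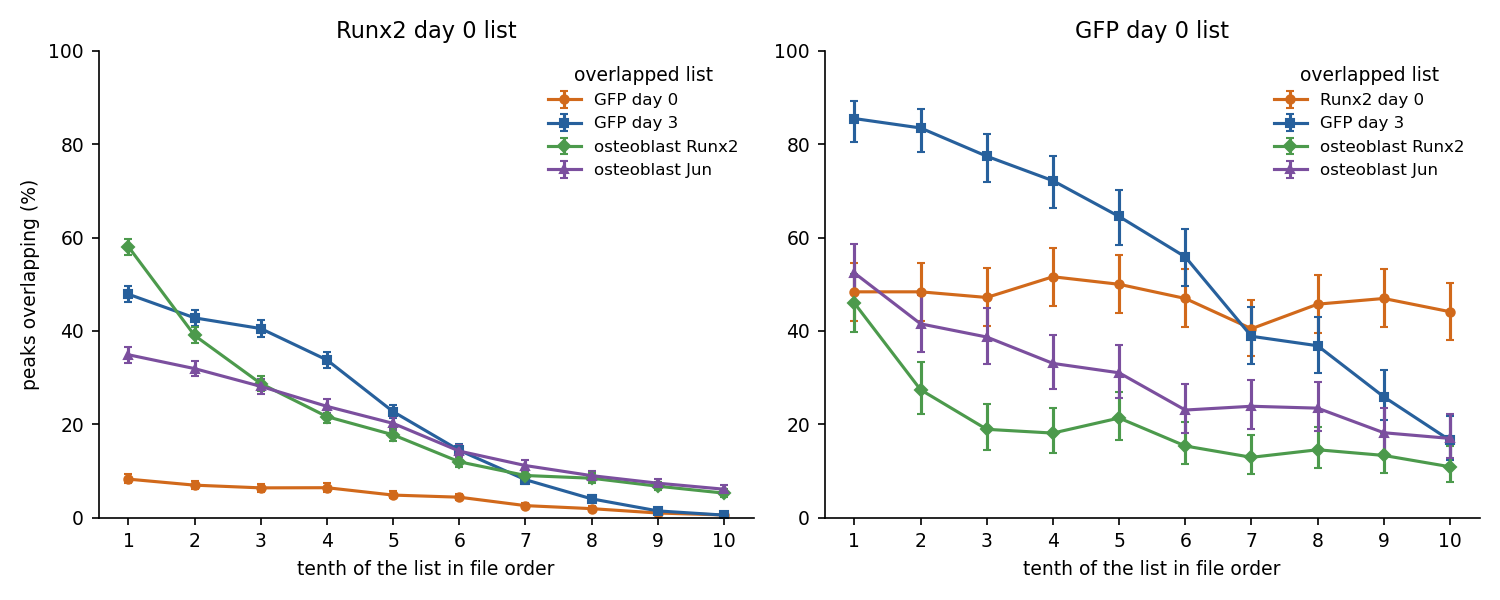
Share of peaks (%, with 95% Wilson intervals) that overlap another list, in 10 equal parts of the file from first to last, for the Runx2 day 0 list on the left and the GFP day 0 list on the right. In the Runx2 list the overlaps plotted (GFP day 0, GFP day 3, osteoblast Runx2 and Jun) are highest in the first part of the file, whereas in the GFP list overlap with Runx2 day 0 stays between 40.5 and 51.6%.

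Runx2 peaks that were also in the control recurred in the GFP day 3 and Jun lists more often than the other Runx2 peaks. Their share in Foxa2 was lower, a difference that did not hold under every alternative. Of all Runx2 day 0 peaks, 21.6% were in GFP day 3, 18.7% in Jun and 3.40% in Foxa2. The share in GFP day 3 was 59.7% of the 1354 peaks with GFP and 19.9% of the 29659 without, a difference of 39.8 percentage points (37.2 to 42.5). Of all GFP day 0 peaks 55.8% were in GFP day 3, so this difference follows in part from how the classes were set. For Jun the shares were 41.7% and 17.7%, a difference of 24.1 points (21.4 to 26.7). Both differences had this sign on 20 of 20 chromosomes. For Foxa2 the shares were 1.40% (19 of 1354) and 3.49%, a difference of -2.09 points (-2.63 to -1.28). The share was higher in peaks with GFP on 3 of 20 chromosomes. A chromosome with none of these 19 peaks cannot count as higher, so this count says little. With the crossed lists exchanged the differences were 21.3 points for GFP day 3, 20.9 for Jun and 0.24 for Foxa2 (-0.14 to 0.83). With peaks joined into loci the Foxa2 difference was -1.02 points (-2.01 to 0.26) and that for Jun 39.2 points. In the wider 50% of each list the differences were 25.8 points for GFP day 3, 13.5 for Jun and -1.35 for Foxa2, and with an overlap of 50% of the shorter peak that for Foxa2 was -1.36.

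The Runx2 lists of primary cells and of day 3 gave smaller differences, whose size depended on the processing. For chondrocyte Runx2 and Runx2 day 3 the sign changed only in the comparison within parts of the file given below, to small values without an interval. Among all Runx2 day 0 peaks, 20.7% were in osteoblast Runx2, 27.2% in chondrocyte Runx2 and 81.8% in Runx2 day 3. Osteoblast Runx2 held 30.7% of the peaks with GFP and 20.2% of those without, a difference of 10.5 points (8.05 to 13.04). Chondrocyte Runx2 held 35.5% and 26.9% (8.67 points, 6.11 to 11.3), and Runx2 day 3 held 87.3% and 81.6% (5.74 points, 3.81 to 7.47). These differences were also compared within 10 equal parts of the file and averaged, each part weighted by its number of peaks with GFP. They were then 1.74, -0.63 and -0.77 points, and the share was higher in peaks with GFP in 7, 3 and 5 of 10 parts. With the crossed lists exchanged the difference for Runx2 day 3 was 24.2 points. With peaks joined into loci the differences were larger, 20.3 points for osteoblast Runx2, 21.7 for chondrocyte Runx2 and 9.31 for Runx2 day 3. In the wider 50% of each list they were 3.86 points for chondrocyte Runx2 and 9.51 for Runx2 day 3. The same averaging left 30.0 points for GFP day 3, 18.4 for Jun and -1.70 for Foxa2. For Jun the share was higher in peaks with GFP in 10 of 10 parts of the file.

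**Figure D3:**
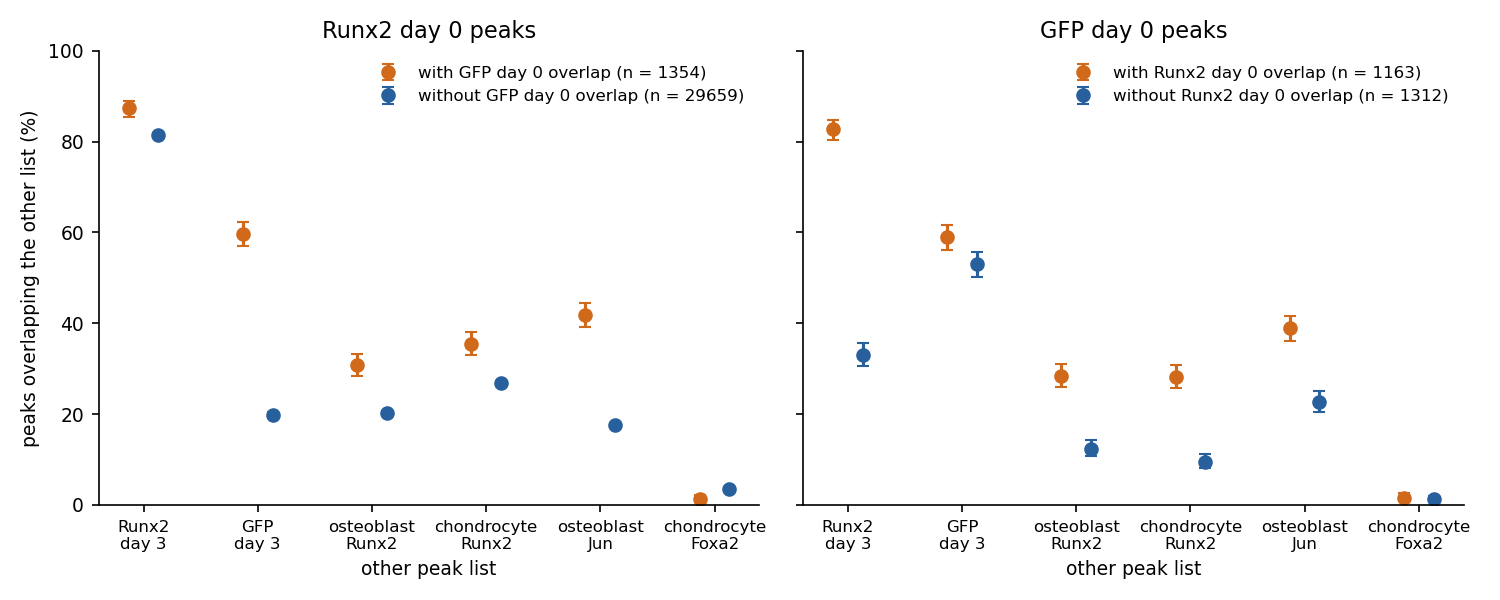
Share of day 0 peaks (%, with 95% Wilson intervals) that overlap each of the 6 other lists, for Runx2 day 0 peaks with and without a GFP overlap on the left and for GFP day 0 peaks with and without a Runx2 overlap on the right. The widest gap on the left is for GFP day 3 (59.7% against 19.9%) and on the right for Runx2 day 3 (82.7% against 33.0%). Each of these is the day 3 list of the same cells as the list that set the classes.

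Peaks with GFP were also in more lists at once. Of them, 63.7% (61.1 to 66.3%) overlapped at least 1 of the 4 primary-cell lists, against 44.3% (43.7 to 44.8%) of Runx2 peaks without GFP. Both primary-cell Runx2 lists held 20.5% and 12.2%. Peaks with GFP stood earlier in the Runx2 file, at a median position of 9357.5 against 15871 for those without. For single lists, the averaging over 10 parts of the file left 1.74 points for osteoblast Runx2 and -0.63 for chondrocyte Runx2. It left 18.4 points for Jun and -1.70 for Foxa2. How far file position accounts for the shares in at least 1 primary-cell list or in both Runx2 lists was not tested. The 2 classes split most clearly by the day 3 lists: 54.0% of the peaks with GFP were in both day 3 lists, against 17.47% of those without, and 33.3% against 64.1% were in Runx2 day 3 and not in GFP day 3. The classes were set by GFP day 0, so a split by GFP day 3 follows in part from how they were set. The most common pattern over all 31013 Runx2 peaks was to be in Runx2 day 3 and no other list (10991 peaks, 35.4%), and 3415 (11.01%) were in no other list at all. Counting either GFP list as background, 7259 Runx2 day 0 peaks (23.4%, 22.9 to 23.9%) met it.

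GFP peaks that met Runx2 day 0 recurred more often in the Runx2 lists of day 3 and of primary cells than those that did not. Of all GFP day 0 peaks, 56.4% were in Runx2 day 3, 55.8% in GFP day 3, 30.3% in Jun, 19.9% in osteoblast Runx2, 18.3% in chondrocyte Runx2 and 1.41% in Foxa2. Runx2 day 3 held 82.7% of the 1163 GFP peaks with Runx2 day 0 and 33.0% of the 1312 without, a difference of 49.7 points (46.3 to 52.9). Of all Runx2 day 0 peaks 81.8% were in Runx2 day 3, so this difference follows in part from how the classes were set. Chondrocyte Runx2 held 28.2% and 9.53% (18.7 points, 15.6 to 21.7), and osteoblast Runx2 held 28.5% and 12.3% (16.1 points, 12.96 to 19.3). Jun held 38.9% and 22.6%, a difference of 16.2 points (12.6 to 19.8). With the same weighted averaging within the GFP file, these 4 differences were 49.9, 18.4, 15.7 and 15.8 points. The share of GFP peaks with Runx2 day 0 varied little along that file (40.5 to 51.6%), so the averaging could change them little. In the wider 50% of each list the 4 differences were smaller, 31.7 points for Runx2 day 3, 7.60 for chondrocyte Runx2, 8.78 for osteoblast Runx2 and 4.65 for Jun. The interval for Jun then held 0 (-0.29 to 9.84).

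The 2 classes of GFP peaks were closer in the other control and in Foxa2. GFP day 3 held 58.9% of the GFP peaks with Runx2 and 53.0% of those without (5.93 points, 2.01 to 9.82). That difference was 0.44 points (-5.19 to 6.20) in the wider 50% of each list and 11.5 points in the first 50% of each file. Foxa2 held 1.63% and 1.22%, and the interval of that difference ran from -0.54 to 1.43 points. Its sign varied with the processing, and with peaks joined into loci it was 1.27 points (0.069 to 2.47). With the crossed lists exchanged, the difference was 6.91 points for Runx2 day 3, in place of 49.7, and 7.93 for chondrocyte Runx2. Among the GFP peaks without Runx2, 458 (34.9%) were in GFP day 3 and not in Runx2 day 3, against 102 (8.77%) of those with Runx2. In no other list were 324 GFP peaks (13.1%), and 4 were in all 7 other lists.

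The early part of the primary-cell Runx2 files held the densest overlap with the GFP control. Of the first 100 osteoblast Runx2 peaks, 49 (39.4 to 58.7%) overlapped Runx2 day 0 and 65 (55.3 to 73.6%) overlapped GFP day 0. Both day 0 lists held 30 of them, Runx2 day 0 alone 19, GFP day 0 alone 35 and neither 16. Over the whole osteoblast list of 10241 peaks the order was the other way: 5094 (49.7%) were in Runx2 day 0 alone and 110 (1.07%) in GFP day 0 alone. Of the first 100 chondrocyte Runx2 peaks, 56 overlapped Runx2 day 0 and 37 (28.2 to 46.8%) overlapped GFP day 0. Over all 15390 chondrocyte Runx2 peaks the shares were 48.2% and 2.86%. In the first 100 peaks the share in GFP day 0 was thus far higher, and that in Runx2 day 0 nearer to the whole list. From the first to the last of 10 equal parts of the file, the share in Runx2 day 0 ran from 65.8 to 25.5% for chondrocytes. For osteoblasts it ran from 74.9 to 31.7%. The count of 100 was chosen after values of the lists had been seen.

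The first 100 Jun peaks met the GFP control about as seldom as the whole Jun list. For Foxa2, 100 peaks were too few to tell. Of the first 100 Jun peaks, 45 overlapped Runx2 day 0 and 5 overlapped GFP day 0, against 34.0% and 4.94% of all 14937 Jun peaks. Of the first 100 Foxa2 peaks, 24 overlapped Runx2 day 0 and 0 overlapped GFP day 0. A count of 0 of 100 allows a share of up to 3.00% by the rule of 3 divided by the number of peaks (Wilson limit 3.70%). Of all 14738 Foxa2 peaks, 7.08% overlapped Runx2 day 0 and 0.224% overlapped GFP day 0. In the first of 10 equal parts of the Foxa2 file, 10 of 1474 peaks (0.678%, 0.369 to 1.24%) overlapped GFP day 0. Of the first 100 GFP day 0 peaks, 72 were in osteoblast Runx2, 65 in chondrocyte Runx2, 46 in Runx2 day 0 and 89 in GFP day 3. Of the first 100 Runx2 day 0 peaks, 80 were in osteoblast Runx2, 82 in chondrocyte Runx2 and 17 (10.9 to 25.5%) in GFP day 0. The first 100 osteoblast Runx2 peaks were 100 separate loci at 1000 bp. Of these peaks, 53 lay within 1000 bp of a Runx2 day 0 peak and 68 of a GFP day 0 peak. Of the same 100 osteoblast peaks, 67 overlapped Runx2 day 3 and 75 overlapped GFP day 3, so that the list taken as Runx2 day 0 after the exchange held more of them. In the first of 10 parts of the osteoblast file, which holds those 100 peaks, 20.4% were in GFP day 0. In the second part 7.62% were. In the last, 0 of 1024 peaks met GFP day 0, which allows a share of up to 0.293% by the same rule (Wilson limit 0.374%).

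**Figure D4:**
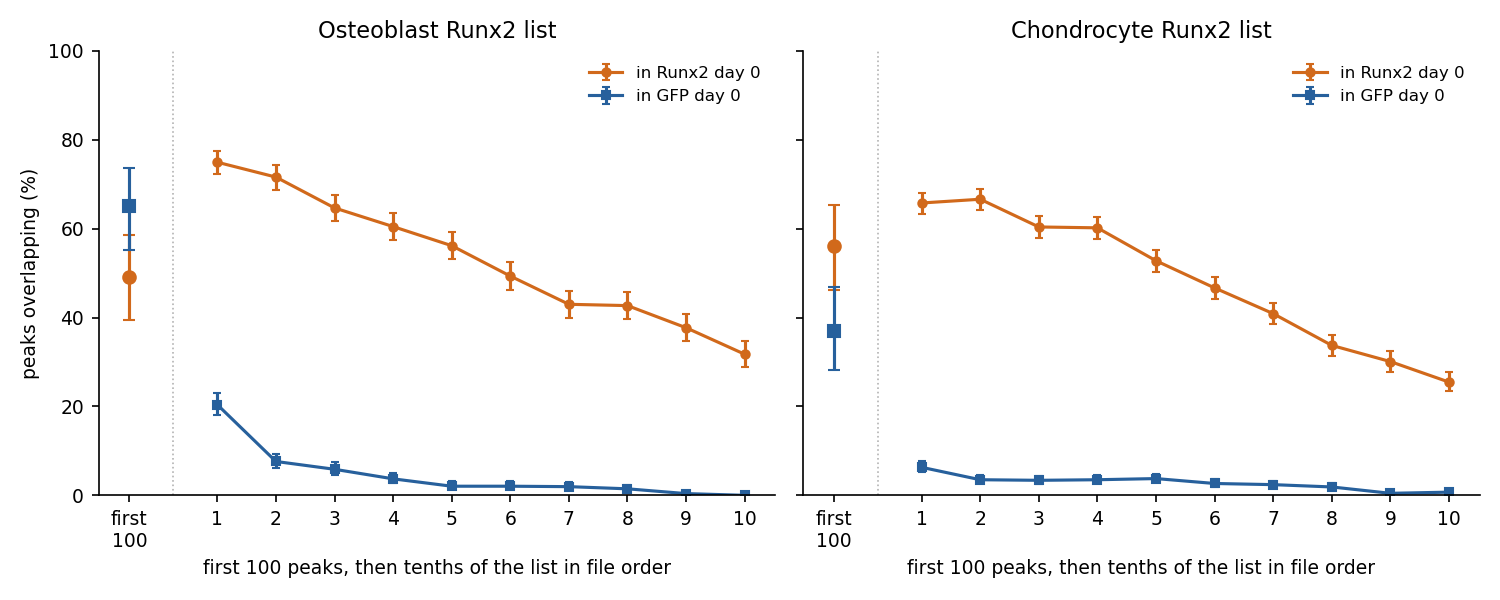
Share of primary-cell Runx2 peaks (%, with 95% Wilson intervals) found in Runx2 day 0 and in GFP day 0, for the first 100 peaks of the file and then for 10 equal parts of the file, for osteoblasts on the left and chondrocytes on the right. In the first 100 osteoblast peaks the GFP day 0 share (65.0%) lies above the Runx2 day 0 share (49.0%), and in each of the 10 parts it lies below.

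Overlap was spread over the genome, with a few dense places. The share of Runx2 peaks with GFP ranged from 2.18% on chromosome X (6 of 275 peaks) to 6.35% on chromosome 19 (72 of 1134), and on chromosome 11 it was 6.09% (180 of 2956). Chromosome 11 held 9.53% of the Runx2 list and 12.97% of the GFP list. The share of GFP peaks with Runx2 ranged from 33.3% on chromosome X (6 of 18) to 59.1% on chromosome 13 (39 of 66). Runx2 peaks fell into 9268 windows of 100 kb and GFP peaks into 1781, and 1667 windows held both, 18.0% of the Runx2 windows and 93.6% of the GFP windows.

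**Figure D5:**
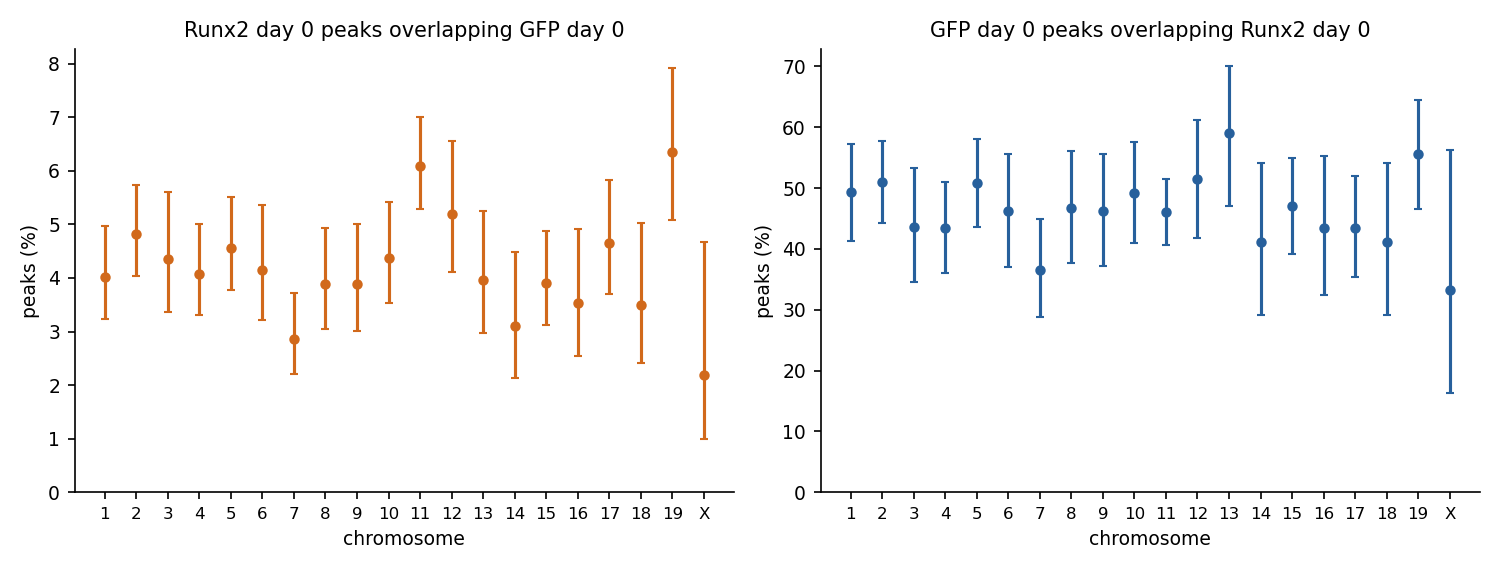
Share of Runx2 day 0 peaks that overlap GFP day 0 (left) and of GFP day 0 peaks that overlap Runx2 day 0 (right), in %, on each chromosome, with 95% Wilson intervals. Chromosomes 11 and 19 have the highest Runx2 shares (6.09 and 6.35%), and the X chromosome has few GFP peaks (18).

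The window with most Runx2 peaks lay at chr19:5800001-5900000, with 41 Runx2 peaks and 17 GFP peaks. There 9 of the Runx2 peaks overlapped GFP, and the window also held 47 Runx2 day 3, 19 Jun and 21 Foxa2 peaks. The next densest Runx2 windows, both on chromosome 12, held almost no GFP peaks: 24 Runx2 and 0 GFP peaks in chr12:88200001-88300000, and 23 and 1 in chr12:106200001-106300000. The window with most GFP peaks lay at chr11:3000001-3100000, with 20 Runx2 and 21 GFP peaks, of which 2 in each list overlapped the other. It held 23 Foxa2 peaks and no peak of primary-cell Runx2 or Jun. The third densest GFP window, at chr5:143500001-143600000, held 15 Runx2 and 8 GFP peaks, and 6 of the 15 overlapped GFP.

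Width differed little between the classes of Runx2 peaks and more between those of GFP peaks. Runx2 peaks with GFP had a median width of 204 bp (quartiles 148 and 294), against 190 bp (149 and 246) without. In 5 equal parts of the Runx2 list from narrow to wide, the share with GFP was 4.69, 3.39, 3.27, 3.93 and 6.55%. GFP peaks with Runx2 had a median width of 218 bp, against 191 bp without, and in 5 such parts of the GFP list the share with Runx2 was 36.4% in the narrowest and 53.5% in the widest. A wider peak meets another by 1 bp more readily, and when all peaks were set to 200 bp around their centres the shares were 4.23% of Runx2 peaks and 46.3% of GFP peaks. Shares by width were not computed at that setting.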

How the data were processed

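ChIP-seq peak lists of 3T3 cells and of primary mouse skeletal cells were used as the authors deposited them. The files hold 3 columns, the chromosome and both ends of a peak, without a score. Coordinates are in build mm9, per the submitters' processing notes, which also name Bowtie and DiffBind without their role. How peaks were called, against which control and at what depth is not given in the sources used here, so the precision that depth gives is unknown. No genome or annotation of mm9 was used here, so the planned counts near genes and of motifs were not run, and no gene is named. Coordinates are 1-based.

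Overlap was 1 bp or more. Overlap counts of 56 ordered pairs of lists were checked against bedtools 2.31.1, with 0 differing, and the counting and intervals were tested on simulated data. With 1 list per group no p-value was computed. The regions named are the 3 widest and the first 3 in file order of each class, and the 3 windows of 100 kb with most peaks of each list. Members, classes and alternatives were chosen with earlier results of these data known. Alternatives varied overlap, width, file order, merging, chromosomes and the crossed lists. Python 3.11.15, NumPy 2.4.6, pandas 2.3.3, SciPy 1.17.1 and matplotlib 3.10.9 were used.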

Additional observations from a re-analysis of the deposited data

How the results depend on the processing

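No paired analysis was possible because each 3T3 group had 1 list and no replicate list, so no replicate could be left out either. The files give no depth, so what depth limits is unknown. Of 154 alternative values, 102 stayed within the 95% interval of the value reported and 52 lay outside it. The sign changed in 8: in 3 the interval of the value reported excluded 0, and the other 5 are of the Foxa2 difference of GFP peaks, whose interval held 0. Leaving out X, Y and unplaced sequences, setting peaks to 200 bp, requiring centres within 200 bp, and leaving out the 3 densest GFP windows kept every value within its interval. The causes of the changes below were not tested, beyond that a shorter list or a stricter overlap leaves fewer partners. Differences are in percentage points, peaks with overlap minus those without.

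Where 50% or more of the shorter peak had to overlap, 3.12% of Runx2 peaks met GFP and 35.4% of GFP peaks met Runx2. The Runx2 peaks then differed by 35.4 for GFP day 3, 8.02 for osteoblast Runx2, 6.00 for chondrocyte Runx2 and 19.2 for Jun, and the GFP peaks by 11.7 for Jun. In the wider 50% of each list the shares were 3.01% and 32.4%. The Runx2 peaks differed there by 9.51 for Runx2 day 3, 25.8 for GFP day 3, 3.86 for chondrocyte Runx2 and 13.5 for Jun. The GFP peaks differed there by 31.7 for Runx2 day 3, 0.44 for GFP day 3 (-5.19 to 6.20), 8.78 for osteoblast Runx2, 7.60 for chondrocyte Runx2 and 4.65 for Jun (-0.29 to 9.84). In the first 50% of each file the shares were 4.10% and 40.8%. The Runx2 peaks differed there by 48.4 for GFP day 3 and 17.7 for Jun, and the GFP peaks by 54.0 for Runx2 day 3 and 11.5 for GFP day 3.

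With the crossed lists exchanged the shares were 9.29% and 55.8%. The Runx2 peaks then differed by 24.2 for Runx2 day 3, 21.3 for GFP day 3, 12.3 for chondrocyte Runx2, 20.9 for Jun and 0.24 for Foxa2. The GFP peaks differed by 6.91 for Runx2 day 3, 11.98 for osteoblast Runx2, 7.93 for chondrocyte Runx2 and -0.58 for Foxa2. Merging overlapping peaks of a list gave a Runx2 share of 4.01%, and counting peaks within 1000 bp gave 10.4% of Runx2 peaks and 80.9% of GFP peaks.

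The remaining alternatives were chosen after seeing the data. With peaks within 1000 bp joined into loci, the shares were 4.94% and 55.3%. The Runx2 loci differed by 9.31 for Runx2 day 3, 52.2 for GFP day 3, 20.3 for osteoblast Runx2, 21.7 for chondrocyte Runx2, 39.2 for Jun and -1.02 for Foxa2 (-2.01 to 0.26), and the GFP loci by 20.99 for Jun. The last compared peaks within 10 equal parts of the file, each part weighted by its number of peaks with overlap. The Runx2 peaks then differed by -0.77 for Runx2 day 3, 30.0 for GFP day 3, 1.74 for osteoblast Runx2, -0.63 for chondrocyte Runx2 and 18.4 for Jun.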
